A study of Mus musculus with 2 samples.

Results

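The receptors, G proteins and adenylyl cyclases through which autonomic nerves act on the heart were described for 9 genes: the beta-adrenergic receptors Adrb1 and Adrb3, the alpha1-adrenergic receptors Adra1a and Adra1b, the muscarinic receptor Chrm2, the G protein alpha subunits Gnai2 and Gnaq, and the adenylyl cyclases Adcy5 and Adcy6. They were chosen by symbol, not by a rule on their values, though earlier results of these data were known. All 9 were found among 55536 mouse gene rows. The material was heart RNA from a single group of 2 adult male mice of the strain B6CASTF1/J, offspring of C57BL/6J and CAST parents, aged 8 to 10 months and given no treatment that the labels name. The labels call them animals 2 and 4, here replicates 1 and 2, and give both the same donor entry. Each library was made from 300 ng of total RNA by a kit that keeps strand, after reduction of ribosomal RNA and with ERCC spike-ins.

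Noradrenaline from sympathetic nerves binds beta-adrenergic receptors, which act through the stimulatory G protein Gs on adenylyl cyclases, and the cyclic AMP these make raises the rate and force of the beat. Alpha1-adrenergic receptors act instead through Gq on phospholipase C. Acetylcholine from the vagus nerve binds the M2 muscarinic receptor, whose inhibitory G protein Gi holds the cyclases back and whose beta and gamma subunits open an atrial potassium channel made of the products of Kcnj3 and Kcnj5.

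Replicate 1 was read to 42.05 M and replicate 2 to 39.98 M expected counts over mouse genes. The tissue label was borne out by the 8 heart muscle markers, all present, with summed levels of 29592 and 32036 TPM. Myh6, the alpha myosin heavy chain, had 6325 TPM in replicate 1 and 6951 TPM in replicate 2. Markers of other cells were present as well, with summed levels of 227.03 and 223.92 TPM for 7 endothelial genes, 188.35 and 198.62 for 6 fibroblast genes, 180.32 and 167.78 for 7 genes of smooth muscle and pericytes, and 44.89 and 45.69 for 7 macrophage genes. TPM is a level per transcript length, scaled to a fixed sum in each library, so it can be compared between genes. Values are from the first of 2 deposited quantifications unless the second is named, and ± is the SD over the 2 libraries (n = 2).

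All genes but Adrb3 were well read. Of the 9 genes, 8 reached 1 TPM in both libraries. The median level over the 9 was 17.91 TPM in replicate 1 and 19.58 TPM in replicate 2, a mean of 18.745 ± 1.18, against a median of 8.225 TPM over the 10755 protein-coding genes at 1 TPM or more in both libraries. By mean level the order was Gnai2, Adcy6, Chrm2, Adra1a, Adra1b, Adcy5, Gnaq, Adrb1 and Adrb3. Neighbours were taken as apart where the gap between their means was larger than the sum of their SDs, which held for 6 of 8 neighbouring pairs. The pairs that were not apart were Adra1a with Adra1b and Adra1b with Adcy5. These are levels in whole tissue, in which fewer cells of a type and less RNA per cell cannot be told apart.

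**Figure D1:**
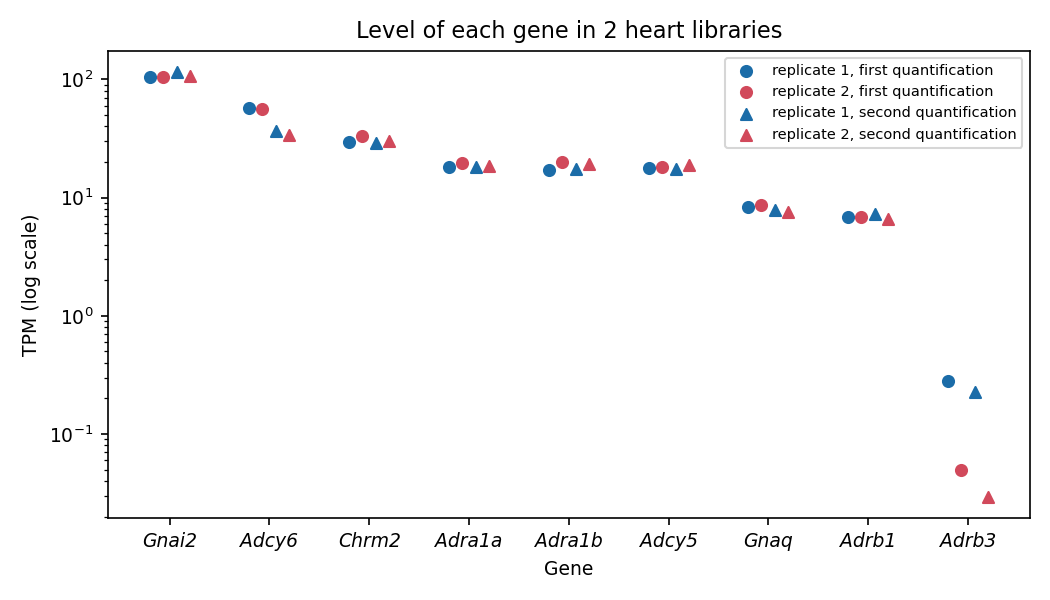
Level of each gene in TPM on a log axis, with circles for the first quantification, triangles for the second, and blue and red for replicates 1 and 2. The genes run from 105 TPM for Gnai2 to 0.165 TPM for Adrb3, and Adcy6 is the gene above 1 TPM whose circles and triangles lie farthest apart.

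Adrb1 was far above Adrb3 in both animals. Adrb1 encodes the beta1 receptor, the main target of noradrenaline in heart muscle cells (ENSMUSG00000035283.5, mm10 chromosome 19, 56722199 to 56733113, plus strand). Its level was 6.80 TPM in replicate 1 and 6.87 TPM in replicate 2, or 6.835 ± 0.0495 TPM, from 669 and 637 reads. The values of the animals were nearly the same, and 43.8% of the expressed protein-coding genes had a lower mean level.

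Adrb3 encodes the beta3 receptor, best known from fat cells (ENSMUSG00000031489.15, chromosome 8, 27225776 to 27250616, minus strand). It was read 22 times in replicate 1 and 3 times in replicate 2, at 0.28 and 0.05 TPM, or 0.165 ± 0.163 TPM. In the second quantification it had 24 and 3 estimated reads. Replicate 1 was the higher by both. Adrb1 exceeded Adrb3 24.3-fold in replicate 1 and 137-fold in replicate 2, both ratios of TPM. Reads of Adrb3 were too few to say which transcript was made: Adrb3-201 was given 15.5 reads in replicate 1 and 0 in replicate 2, and Adrb3-203 was given 5.71 and 3.

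The alpha1-adrenergic class was divided between both genes described. Adra1a (ENSMUSG00000045875.13, chromosome 14, 66635251 to 66771168, plus strand) had 18.18 TPM in replicate 1 and 19.58 TPM in replicate 2, or 18.9 ± 0.990 TPM. Adra1b (ENSMUSG00000050541.14, chromosome 11, 43774606 to 43901210, minus strand) had 17.01 and 19.91 TPM, or 18.5 ± 2.05 TPM. The ranges of these receptors overlapped, and their order differed between the animals. The log2 ratio of Adra1a to Adra1b in TPM was 0.04 ± 0.08, a fold of 1.03, and it was 1.00 in the second quantification. Adra1d, the third gene of the class, had 1.76 and 1.44 TPM. Adra1a held 48.5 ± 0.964% of the class total of 38.9 ± 2.81 TPM, Adra1b 47.3 ± 1.85% and Adra1d 4.14 ± 0.880%.

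Each of the 2 alpha1 genes stood above Adrb1. The log2 ratio of TPM to Adrb1 was 1.46 ± 0.07 for Adra1a (2.76-fold) and 1.43 ± 0.15 for Adra1b (2.69-fold). Both ratios were larger than their spread between libraries. The Adra1b ratio rests on transcript models of the annotation: with models of incomplete ends left out, an alternative chosen after the values were seen, Adra1b was at 4.90 TPM, which is below Adrb1. One of the models then left out, Adra1b-202, has the same 3047 bases as the protein-coding Adra1b-204, and the first quantification split their reads evenly, at 480.38 reads each in replicate 1 and 495.39 each in replicate 2. Its posterior SD for Adra1b-204 in replicate 1 was 262 reads, more than a 50% share of that count, so the split between them is not known. The value of 4.90 TPM thus leaves out reads of a sequence that a complete model shares. Joined, the identical models had 9.36 and 10.24 TPM in the first quantification, above Adrb1 in both libraries. In the second they had 6.98 and 6.93 TPM, against 7.20 and 6.62 TPM for Adrb1.

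Chrm2 dominated the muscarinic receptors. It encodes the M2 receptor of the vagal response (ENSMUSG00000045613.9, chromosome 6, 36388084 to 36528414, plus strand) and had 29.54 TPM in replicate 1 and 33.44 TPM in replicate 2, or 31.5 ± 2.76 TPM. It held 98.7 ± 0.217% of the summed TPM of the 5 muscarinic genes (31.9 ± 2.86 TPM). Chrm3, coupled to Gq, was the next highest at 0.27 and 0.41 TPM. Chrm2 exceeded Adrb1 in both animals, with a log2 ratio of TPM of 2.20 ± 0.12 (4.60-fold, and 4.26-fold in the second quantification). By uncorrected reads, which favour long transcripts, the ratio was 8.97-fold.

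The inhibitory G protein subunit was the most abundant of the 9 genes. Gnai2 encodes an alpha subunit of Gi (ENSMUSG00000032562.13, chromosome 9, 107614125 to 107635367, minus strand). Its level was 104.21 TPM in replicate 1 and 105.16 TPM in replicate 2, or 105 ± 0.672 TPM, above 95.3% of expressed protein-coding genes. Gnai2 held 87.7 ± 0.607% of the summed TPM of 5 Gi/o genes (119 ± 1.59 TPM). The others were Gnao1 at 6.08 ± 0.903%, Gnai3 at 4.43 ± 0.349%, Gnai1 at 1.47 ± 0.0456% and Gnaz at 0.293 ± 0.00794%.

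Gnaq, whose product couples alpha1 receptors to phospholipase C, was lower (ENSMUSG00000024639.5, chromosome 19, 16132831 to 16387463, plus strand). It had 8.25 TPM in replicate 1 and 8.66 TPM in replicate 2, or 8.455 ± 0.290 TPM. Gnaq was not the leading gene of its class, in which Gna11, with the same coupling, held 67.7 ± 1.35% and Gnaq 30.8 ± 1.02% of 27.475 ± 0.0354 TPM. The second quantification gave 66.6% and 31.1%. Gnai2 exceeded Gnaq by a log2 ratio of TPM of 3.63 ± 0.04 (12.4-fold, 14.4-fold in the second quantification and 4.02-fold in uncorrected reads).

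The ends of these alpha subunits touch the receptor and help to set which receptor each one serves. Gi subunits can be modified near this end by pertussis toxin, and Gq subunits cannot. The last 30 coding bases before the stop codon are shown for the leading transcript of each, from GENCODE M21 transcripts, with the final 15 bases in capitals. Gnai2-201 lies at chr9:107615638-107615667 on the minus strand and Gnaq-201 at chr19:16383362-16383391 on the plus strand.
Gnai2-201: aagaacaacctgaagGACTGTGGCCTCTTC
Gnaq-201: cagctgaacctgaagGAGTACAATCTGGTC
The sequences have the same base at 18 of 30 positions. Of all 31-base words in the transcripts of Gnai2, 3.48% also occur in transcripts of other genes, against 0.897% for Gnaq.

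Adcy6 led the adenylyl cyclases. Adcy5 and Adcy6 encode the calcium-inhibited cyclases that are the main forms of heart muscle cells. Adcy6 (ENSMUSG00000022994.9, chromosome 15, 98589973 to 98610076, minus strand) had 57.05 TPM in replicate 1 and 55.58 TPM in replicate 2, or 56.3 ± 1.04 TPM. Adcy5 (ENSMUSG00000022840.9, chromosome 16, 35154877 to 35305738, plus strand) had 17.91 and 18.14 TPM, or 18.025 ± 0.163 TPM. The levels of the pair did not overlap.

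How far Adcy6 stood above Adcy5 depended on the quantification, while the direction did not. The log2 ratio of Adcy6 to Adcy5 in TPM was 1.64 ± 0.04, or 3.12-fold. The second quantification gave 36.7 TPM in replicate 1 and 34.1 TPM in replicate 2 for Adcy6, a mean 1.59 times lower than in the first, and a fold of 1.96. Models with complete ends gave 2.32-fold and uncorrected reads 1.62-fold.

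Of the summed TPM of 10 cyclase genes (93.0 ± 0.905 TPM), Adcy6 held 60.5 ± 0.528% and Adcy5 19.4 ± 0.363%. In the second quantification these shares were 50.3 ± 1.96% and 25.6 ± 1.65%. Adcy9 followed with 9.00 ± 0.787% and Adcy4 with 6.32 ± 1.07% in the first quantification, and the rest held under 2% each.

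**Figure D2:**
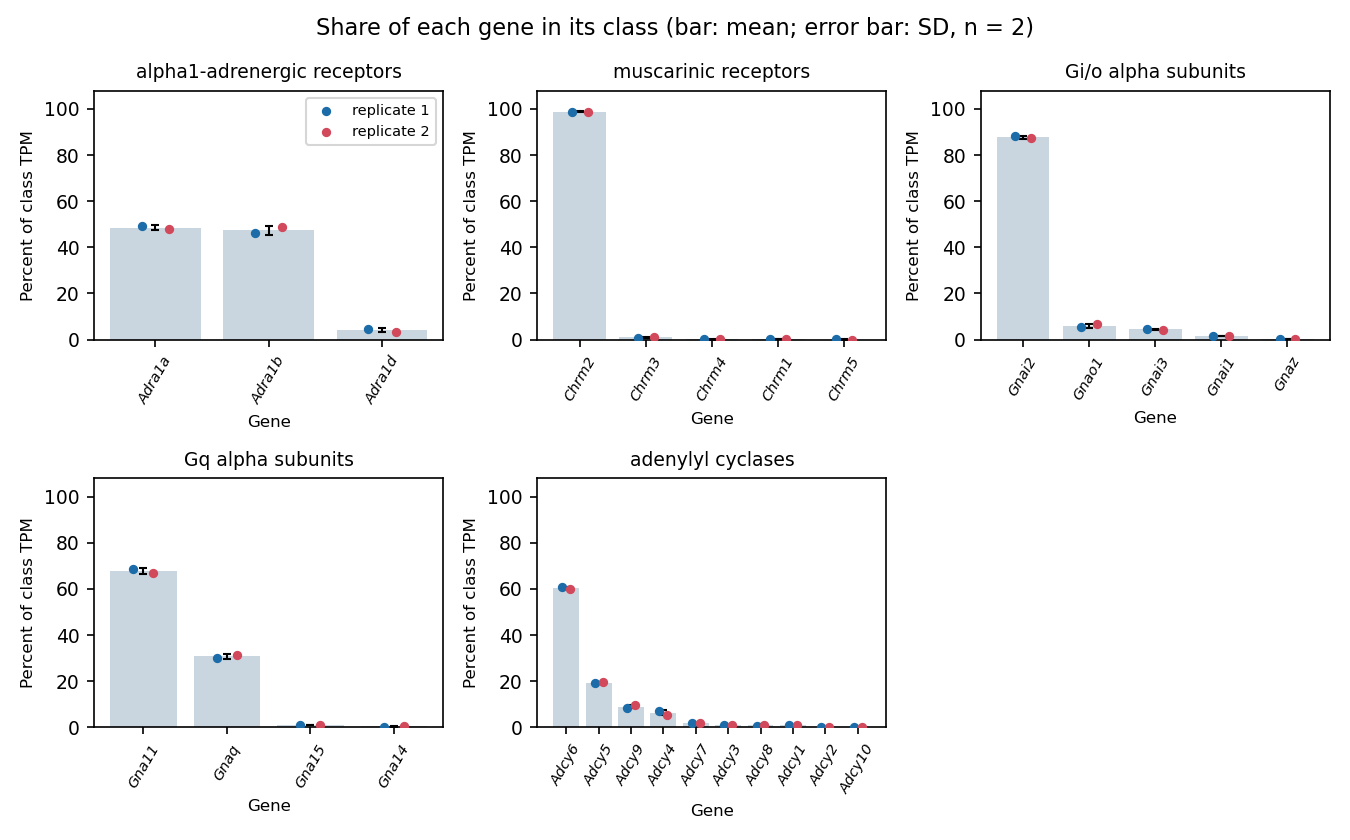
Percent of the summed TPM of each receptor, G protein or cyclase class held by each gene, in the first quantification, with bars for the mean, error bars for the SD (n = 2) and points for replicates 1 and 2. Chrm2, Gnai2 and Adcy6 lead their classes, Adra1a and Adra1b share theirs, and Gna11 stands above Gnaq.

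Transcript shares, the percent of a gene's TPM held by each of its annotated models, were read for 41 models of the 9 genes. With each model scored alone, the leading model was the same in both quantifications for 8 genes, the exception being Adrb3. Joined, the identical models Adra1b-202 and Adra1b-204 led their gene in the first quantification (53.3%) but not in the second (38.1%). Scored alone, the leading model held over 50% in both libraries for 5 genes. These were Adcy5 (Adcy5-201, 100% in both), Adrb1 (Adrb1-201, 98.9 ± 0.0424%, a gene whose coding frame lies in a single exon), Chrm2 (Chrm2-202, 98.8 ± 1.73%), Gnaq (Gnaq-201, 89.9 ± 1.65%) and Gnai2 (Gnai2-201, 64.7 ± 1.16%). In the second quantification Gnai2-201 held 53.7%, and Gnai2-205, a model of 621 bases whose end is marked as not found, held 39.6% against 25.0 ± 2.62% in the first.

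Adra1a was read in 2 coding forms of nearly equal share. The forms have the same first 1269 coding bases and then part, with 129 further coding bases in the long form (Adra1a-201, Adra1a-202 and Adra1a-205) and 12 in the short form (Adra1a-203). The sequences around that point show the difference, from GENCODE M21 on mm10, with the bases after the forms part in capitals. The long form runs on through chr14:66727808-66727861 on the plus strand and is shown for its first 30 separate bases. The short form leaves the exon at 66727831 and resumes at chr14:66731564-66731575, where its coding frame ends.
Adra1a-201: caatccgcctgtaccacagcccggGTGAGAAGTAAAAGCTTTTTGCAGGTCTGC
Adra1a-203: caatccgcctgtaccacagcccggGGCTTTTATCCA
The long form held 48.55% of Adra1a TPM in replicate 1 and 50.87% in replicate 2, or 49.7 ± 1.64%. The short form held 48.0% and 44.85%, or 46.4 ± 2.23%. The gap between the means was smaller than the sum of the SDs, and the second quantification reversed the order, with 46.7% for the long and 49.1% for the short form.

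Model shares of Adcy6 depended on the quantification. Adcy6-201, a full-length coding model, held 29.05 ± 1.51% of Adcy6 TPM in the first and 65.0% in the second. Adcy6-204, a coding model of 612 bases whose end is marked as not found, held 25.8 ± 0.552% in the first and 0% in the second. That share came from 258 reads in replicate 1 and 244 in replicate 2, or 3.68% of the reads of the gene. The model Adcy6-202, annotated as a retained intron, held 24.4 ± 1.79% in the first quantification and 7.22% in the second.

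The other full-length coding model, Adcy6-205, differs from Adcy6-201 by 6 coding bases (3498 against 3504). The junction is shown on the minus strand, with those bases (chr15:98600172-98600177) in capitals, between the flanks chr15:98600178-98600201 and chr15:98600004-98600027.
Adcy6-201: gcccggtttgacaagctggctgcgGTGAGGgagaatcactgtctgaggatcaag
Adcy6-205: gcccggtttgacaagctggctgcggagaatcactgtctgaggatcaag
The form with the 6 bases had 15.96 TPM in replicate 1 and 16.74 TPM in replicate 2, and the form without them 8.68 and 8.76 TPM. Adcy6-201 was thus the higher of the pair in both animals, and it was so in the second quantification as well (23.0 against 4.52 TPM).

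For Adra1b, the identical models Adra1b-202 and Adra1b-204 held 53.3 ± 2.59% together, and Adra1b-203, marked as having an end not found, held 46.7 ± 2.59%. The second quantification gave Adra1b-203 61.6%, so the larger of the 2 shares was not the same in both.

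**Figure D3:**
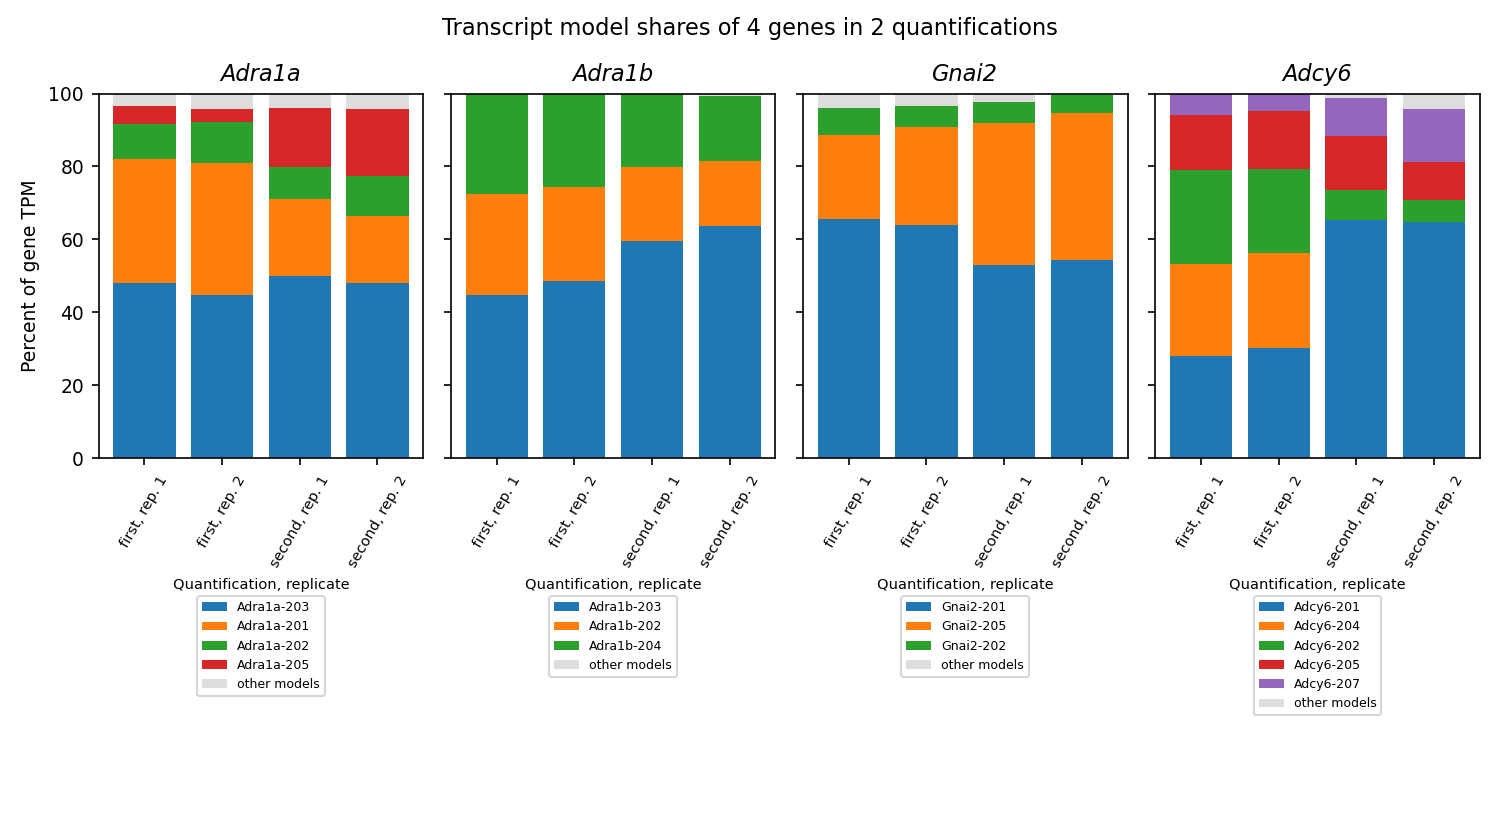
Percent of gene TPM held by each transcript model of Adra1a, Adra1b, Gnai2 and Adcy6, as stacked bars for replicates 1 and 2 in the first and second quantification. Within a quantification the animals are alike, and Adcy6-201 goes from 29.05% in the first to 65.0% in the second.

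Between the animals, the 8 genes with enough reads to compare were close. Ratios were taken from expected counts scaled by TMM, and a gene was called different where its counts summed to 200 or more, its ratio was at least 2-fold and its exact interval for counting error, drawn to leave out 0.1%, excluded 1. None of the 8 genes tested met this, against 118 of 10960 genes in all (1.08%). A count of 0 among 8 is near that background and sets these genes apart from no others. With 1 library per animal the ratios have no replicate check and no p-value, and an exact sign-flip test over 2 libraries could not go below a two-sided p of 0.5.

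The 8 genes had 1306 or more summed counts each, against a minimum of 200 for all genes tested, so depth was not matched. The median absolute log2 ratio was 0.06 over the 8 genes and 0.11 over all genes tested. Directions this small depended on the scaling: of the 8, 4 were higher in replicate 2 with TMM, 3 with DESeq2 size factors or spike-in counts and in the second quantification, and 7 in TPM. Chrm2, Adra1a and Adra1b were higher in replicate 2 under all of these. The largest ratio was that of Adra1b, 1403 and 1519 reads, with a log2 ratio of replicate 2 over replicate 1 of 0.17 (interval -0.01 to 0.34). Chrm2, with 5731 and 5988 reads, had a log2 ratio of 0.12 (0.03 to 0.20). With TMM it was the one gene of the 8 whose interval excluded no difference, as did those of 18.1% of all genes tested. Which genes this held for also depended on the scaling. With spike-in counts Chrm2 was at 0.07 (-0.02 to 0.16) and in TPM at 0.18. With spike-in counts the intervals of Gnai2 (-0.19 to -0.02) and Adcy6 (-0.19 to -0.03) excluded no difference instead. In the second quantification those of Chrm2 (0.04 to 0.20) and Adra1b (0.02 to 0.36) did. The values for Adcy5 (4305 and 4114 reads, -0.01), Gnaq (1461 and 1414, 0.01) and Adrb1 (669 and 637, -0.02) were near 0. Gnai2 (5999 and 5555 reads) and Adcy6 (7101 and 6552) were at -0.06 each, and Adra1a (2494 and 2542) was at 0.08.

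**Figure D4:**
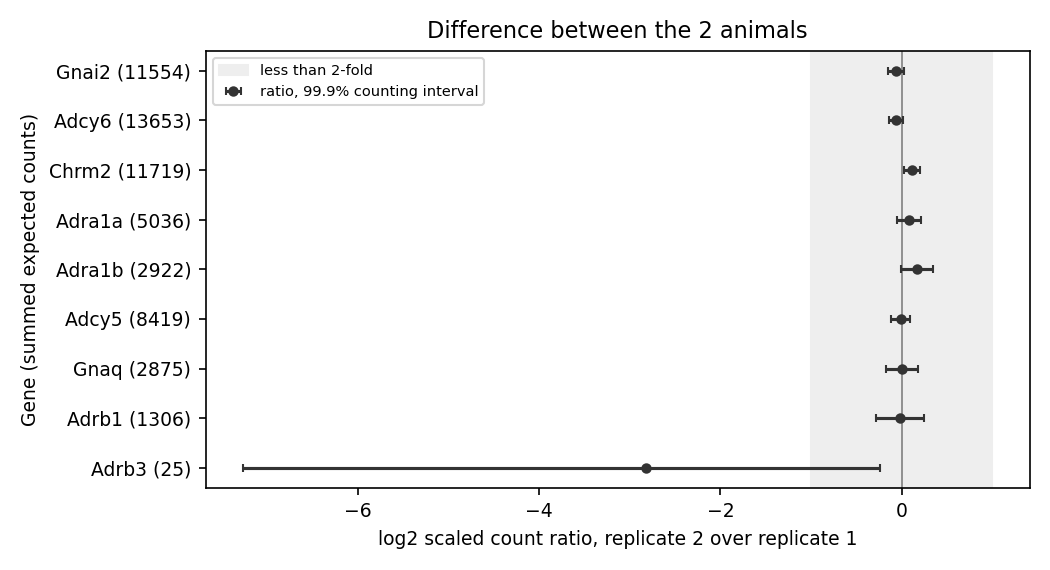
Log2 ratio of scaled expected counts, replicate 2 over replicate 1, for each gene with its summed expected counts in brackets, where bars are intervals for counting error and the grey band marks less than 2-fold. All genes but Adrb3 lie within the band, and the Adrb3 interval is wide since it rests on 25 reads.

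Adrb3 fell under the minimum of 200 reads. Its 22 and 3 reads gave a scaled ratio of replicate 1 over replicate 2 of 7.07, with an interval of 1.18 to 154. With no filter on low counts Adrb3 was called higher in replicate 1, as were 332 of 23657 genes (1.40%, or 1.81% in either direction). On the TPM scale with a pseudocount of 1 the log2 ratio of replicate 2 over replicate 1 was -0.29.

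Adipocyte markers, like Adrb3, had more reads in replicate 1. None met the rule for a difference, for which 2 of the 8 (Cidea and Pparg) had enough reads. All 8 markers had a lower scaled count in replicate 2, with a median log2 ratio of replicate 2 over replicate 1 of -2.02, and their summed level was 32.28 TPM in replicate 1 and 21.62 TPM in replicate 2. Lep, the fat hormone leptin, had 55 reads in replicate 1 and 5 in replicate 2. Ucp1, the uncoupling protein of brown fat, had 43 and 5 reads, and Plin1, the coat protein of lipid droplets, had 113 and 25. Cidea (576 and 471 reads) and Pparg (294 and 250) differed less, and none of the 8 was at 0 in either library. The 7 blood markers were also all lower in replicate 2, with a median log2 ratio of -0.96. The part of these cells in the Adrb3 values was not tested.

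Most heart muscle markers, as well as all atrial markers, a list added after the values were seen, moved in the same direction as Chrm2. Of the 8 general heart muscle markers 7 had a higher scaled count in replicate 2, with a median log2 ratio over the 8 of 0.08 and Myh6 at 0.12. The exception, Ttn, was at -0.24, larger in size than the ratio of any of the other 7. All 8 atrial markers had a higher scaled count in replicate 2, with a median log2 ratio of 0.19 and summed levels of 975 and 1137 TPM, and none was at 0. Nppa, the atrial natriuretic peptide, had 522.04 and 616.35 TPM. Kcnj3 and Kcnj5, the potassium channel genes that act downstream of Chrm2, were also higher in replicate 2, with log2 ratios of scaled counts of 0.19 and 0.24. None of these genes met the rule for a difference, and the part of heart muscle or atrial tissue in them was not tested.

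**Figure D5:**
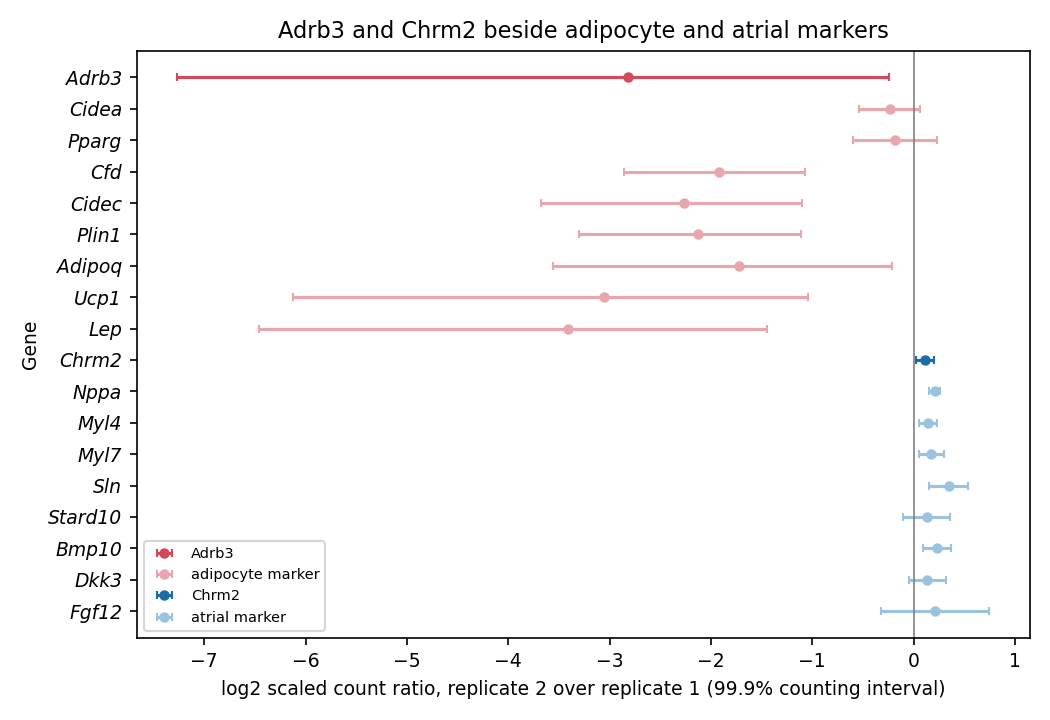
Log2 ratio of scaled expected counts, replicate 2 over replicate 1, for Adrb3 with 8 adipocyte markers and for Chrm2 with 8 atrial markers, with intervals for counting error. The adipocyte markers lie to the left of 0 with a median of -2.02 and the atrial markers to the right with a median of 0.19.

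The rest of the pathway was read from 10 lists with 98 genes, all found, of which 56 reached 1 TPM in both libraries. Of the 55 with enough reads to compare, 1 met the rule for a difference between the animals, against the same background of 1.08%. This was Rgs18, a regulator of G protein signalling known from platelets, with 155 reads in replicate 1 and 74 in replicate 2, a ratio of replicate 1 over replicate 2 of 2.02 (interval 1.27 to 3.29). The 7 blood markers were all higher in replicate 1 as well, with summed levels of 8153 and 4418 TPM and none at 0 in both libraries. Most of that sum came from the haemoglobin genes Hbb-bs (4229 and 2272 TPM) and Hba-a1 (3872 and 2119 TPM). Among the marker genes, Ptprc of the blood list (382 and 146 reads) also met the rule, higher in replicate 1. So did Adgre1 of the macrophage list (512 and 193 reads). The part of blood cells or macrophages in Rgs18 was not tested.

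Most genes for making, storing and clearing the transmitters were under 1 TPM. Of 10 noradrenergic genes, 2 reached 1 TPM in both libraries, and the list median was 0.380 ± 0.205 TPM. Both clear or break down catecholamines: Maob, a monoamine oxidase, at 20.00 and 19.49 TPM, and Slc22a3, a transporter into non-neuronal cells, at 6.31 and 6.75 TPM. Maoa, the other monoamine oxidase, was at 0.60 and 0.71 TPM, and Dbh, which makes noradrenaline from dopamine, at 0.61 and 0.66 TPM. Th, the first enzyme of noradrenaline synthesis, had 1 read in replicate 1 and 0 in replicate 2. Of 5 cholinergic genes 1 reached 1 TPM, which was Bche, a cholinesterase, at 5.50 and 5.83 TPM. Ache, acetylcholinesterase, had 0.52 and 0.60 TPM, and Slc5a7, the choline transporter, 0.03 and 0 TPM. Chat, which makes acetylcholine, and Slc18a3, which loads it into vesicles, had 0 reads in both libraries, a result that still allows up to 3 reads in each. In the second quantification Chat had a mean of 0.0138 TPM. Whether the tissue taken held cell bodies of these nerves was not tested. The 7 neuron and Schwann cell markers summed to 8.70 TPM in replicate 1 and 7.14 TPM in replicate 2.

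Of 8 other adrenergic and muscarinic receptor genes listed, 1 reached 1 TPM in both libraries (Adra1d), and the list median was 0.170 ± 0.0495 TPM. The alpha2 receptors Adra2b, at 0.27 and 0.23 TPM, and Adra2a, at 0.26 and 0.13 TPM, act through Gi. Chrm2, Adra1a, Adra1b and Adrb1 were thus each above every one of these 8 in both animals.

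Other G protein subunits were read at levels up to and above that of Gnai2. Gnas, the alpha subunit of Gs through which beta receptors act, had 434.34 TPM in replicate 1 and 453.93 TPM in replicate 2, higher than Gnai2 in both. Gna12 (59.24 and 58.32 TPM) and Gna13 (10.21 and 10.17 TPM), which act on the cytoskeleton, and Gna11 (18.85 and 18.36 TPM) also stood above Gnaq. Over the 11 other alpha subunit genes 7 reached 1 TPM, with a median of 5.285 ± 0.346 TPM. Of 16 beta and gamma subunit genes 11 did, with a median of 5.16 ± 0.721 TPM. The highest were Gng5 at 91.80 and 87.96 TPM, Gnb2 at 89.13 and 84.16 TPM, Gnb1 at 52.12 and 48.50 TPM, and Gng11 at 25.76 and 23.80 TPM. Gnb1 was 80.6 TPM in the second quantification.

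Of 8 other cyclases, 3 reached 1 TPM in both libraries, with a median of 0.940 ± 0.127 TPM over the list. Adcy9 had 7.91 and 8.83 TPM, Adcy4 6.63 and 5.14, Adcy7 1.74 and 1.63, and Adcy3 0.91 and 0.93. All 4 stood below Adcy5 in both animals.

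Genes that turn receptors off differed widely in level. Of 7 receptor kinases and arrestins, which tag and uncouple active receptors, 6 reached 1 TPM (median 6.325 ± 0.403 TPM). Grk2, the beta-adrenergic receptor kinase, had 17.85 and 16.72 TPM, Grk5 13.37 and 9.09, Arrb1 9.89 and 7.20, and Grk6 6.61 and 6.04. Of 16 RGS genes, whose products speed the switching off of alpha subunits, 9 reached 1 TPM (median 2.04 ± 0.930 TPM). Rgs5, also a marker of pericytes, had 107.11 and 105.39 TPM, Rgs3 8.91 and 11.08, Rgs2 9.97 and 5.51, and Rgs12 6.51 and 6.12.

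Downstream of Gq, 9 of 10 effector genes reached 1 TPM (median 6.73 ± 0.194 TPM). Plcb4, a phospholipase C, had 18.92 and 20.21 TPM, the protein kinase Prkca 13.26 and 14.12, the calcium release channel Itpr1 12.86 and 14.11, and the protein kinase Prkce 10.49 and 9.99. All 4 had a higher level than Gnaq in both animals. In the list of the muscarinic potassium channel and sensors of cyclic AMP, all 7 genes reached 1 TPM (median 17.4 ± 0.233 TPM). Popdc2, a membrane protein that binds cyclic AMP, had 219.83 and 240.27 TPM, and Rapgef4, an exchange factor that cyclic AMP activates, 17.59 and 17.26. Kcnj3 had 22.90 and 29.46 TPM and Kcnj5 18.78 and 23.13 TPM. The level of Chrm2 was above that of both channel genes in each animal, but in the second quantification Kcnj3 was at 29.6 TPM and Chrm2 at 29.4 TPM.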

How the data were processed

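Total RNA-seq libraries of 2 hearts were used as deposited. Per the file headers, the first quantification has the column layout of RSEM, in which the authors give expected counts, TPM, FPKM and, for each transcript, its percent of the gene. A second deposited table per library has estimated counts and TPM in the layout of kallisto. Per the file lists deposited with the libraries, all tables use mm10 and GENCODE M21. Aligner and tool versions: not given in the sources used here.

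Expected counts were rounded. Spike-in rows and 26248 rows with numeric identifiers (1 and 0 counts) were left out. Libraries were scaled by TMM (edgeR 4.0.16, R 4.3.3), with DESeq2 1.42.0 size factors and spike-in counts as alternatives. Neither tool was used for a test, since there is 1 group. Counting intervals are exact (Clopper-Pearson, 99.9%) for independent counts and cover counting error only, since there is 1 library per animal. The tables hold no molecular identifiers, and expected counts are partly divided among models, so the intervals may be too narrow. The rule for differing genes was tested on simulated counts that held counting error only, so the simulation does not cover variation between animals. Second-quantification transcripts were summed per gene. Other steps ran in Python 3.11.15 (scipy 1.17.1, numpy 2.4.6, pandas 2.3.3, matplotlib 3.10.9). Sequences were cut from GENCODE M21 transcripts, and shared 31-base words were counted on the same strand. Protein sequences were not used here, and the loss of CAST reads against mm10 was not analysed here.

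The genes and lists were chosen with earlier results of these data known, and the atrial list and the alternative without incomplete transcript models were added after the values were seen. Every one of the 9 genes is named, with the up to 4 genes of highest mean TPM in each pathway list. Any gene of these pathway lists that differed between the animals, or was at 0 reads in both, is named too. Th, marker genes and further genes in the classes of the 9 are named beyond this rule, and some genes of these pathways are not reported here. Marker lists covered heart muscle, endothelial, fibroblast, smooth muscle, macrophage, adipocyte, nerve and blood cells.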

Additional observations from a re-analysis of the deposited data

How the results depend on the processing

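TPM depends on what else is counted. Rescaled over nuclear protein-coding genes, the median of the 9 genes was 51.7 TPM in place of 18.745, and the order of the genes was the same. In single libraries it was 17.91 and 19.58 TPM. With each model scored alone, the number of genes with a leading transcript over 50% in both libraries was 5, and 8 in the second quantification. Those 8 include Adrb3, whose share there rests on 24 and 3 estimated reads. The number of genes differing between the animals was 118 and became 429 with no filter on low counts, 314 with a minimum of 50 summed counts and 387 at 1.5-fold. The DESeq2 and spike-in scalings gave 116 and 120. Of the 9 genes, Adrb3 alone was called under any of these, with no filter. Without length correction the order by counts was led by Adcy6, Chrm2 and Gnai2. Models with complete ends moved Gnai2 to 78.5, Adcy6 to 41.8 and Adra1b to 4.90 TPM. Of 45 recomputed levels of single genes, 16 moved by more than the SD between libraries. Part of that count was fixed in advance. A single library cannot lie farther than this SD from the mean of both, and rescaling over nuclear protein-coding genes raised every level. The levels of Gnai2, Adcy6, Gnaq and Adrb1 moved in the second quantification. Those of Gnai2, Adcy6 and Adra1b moved with complete transcript models. Of 45 recomputed log2 ratios between the animals, 5 moved outside 95% counting intervals, which are narrower than those of the rule for differing genes. All 45 stayed within the wider intervals of that rule. The log2 ratio of Gnai2, not called in either, was -0.06 from counts and 0.01 from TPM. No paired analysis was possible because the series holds 1 group. Depth limits Adrb3, with 25 reads, and isoform shares of Adra1b and Adcy6 rest on how reads were divided among models.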
